A study of Danio rerio with 12 samples.

Results

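The genes described here are 8 apolipoprotein genes that the zebrafish embryo is known to transcribe in or near the yolk syncytial layer (YSL). They are apobb.1 (ENSDARG00000022767) and apoba (ENSDARG00000042780), apoa1a (ENSDARG00000012076), apoa1b (ENSDARG00000101324) and apoa2 (ENSDARG00000015866), apoea (ENSDARG00000102004) and apoeb (ENSDARG00000040295), and apoc1 (ENSDARG00000092170). They were chosen by name, with earlier results of these data known, and are 8 of the 31953 genes in the table. The mean was at least 1 normalized count in 7 of them, which are among the 17609 genes tested. The exception was apoea.

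RNA was measured in dissected clusters of dorsal forerunner cells (DFCs), the precursors of Kupffer's vesicle, which is the ciliated left-right organizer of the fish. All embryos carried the Tg(sox17:GFP) reporter, whose fluorescence guided the dissection, and were raised at 29 °C to 90% epiboly. The 3 groups of 4 libraries came from embryos injected at the zygote stage with a standard control morpholino, with a morpholino against Vgll4l, a cofactor of TEAD transcription factors, or with morpholinos against Yap1 and Wwtr1 (Taz), the coactivators that bind TEADs in the Hippo pathway. Such an injection reaches all cells of the embryo and the yolk cell, so that neither knockdown was restricted to the DFCs. Per the protocol, RNA of single clusters was amplified as full-length cDNA, and the labels call the 4 libraries of a group biological replicates.

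Apolipoproteins are the protein shell of lipoproteins, the particles that carry lipid between cells. In the zebrafish embryo, the YSL, a multinucleate layer at the surface of the yolk cell, takes up yolk lipid and exports it on particles built around ApoB with the help of the microsomal triglyceride transfer protein. ApoA-I is the main protein of high-density lipoproteins, ApoE is a ligand of receptors of the LDL receptor family, and ApoC-I is known from mammals as a small exchangeable protein that slows the clearance of particles. DFCs lie at the embryonic margin between the YSL and the enveloping layer (EVL), the outer epithelium of the embryo.

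The libraries held 4487894 to 6148871 reads per control cluster, 8698990 to 11235726 per Vgll4l-depleted cluster and 9071323 to 10774775 per Yap/Taz-depleted cluster. A normalized count is a number of reads divided by the size factor of its library, and 1 read was worth 0.666 to 1.62 normalized counts. Libraries of the same group were close to each other. The variance of the differences between control replicates 1 and 2 was 1.81 times that of counting noise. Between replicates 3 and 4 it was 1.84 times, against 5.52 to 6.97 across these pairs. These values are from 4320 genes with at least 50 reads in every library. Between Vgll4l replicate 2 and the other 3 libraries of its group the variance was 12.3 to 18.4 times that of counting noise. It was 2.31 to 3.95 times among the other 3 Vgll4l libraries and 1.85 to 3.04 times among the Yap/Taz libraries. Whether libraries this close came from separate clusters or share amplified cDNA cannot be told from these values. If they share it, n = 4 overstates the number of clusters, and the SDs and p-values below measure only the spread between these libraries. With the closest libraries averaged, an alternative chosen after seeing the data that left 2 control values, 2 Vgll4l values and 1 Yap/Taz value, whose spread is assumed to be that of the other groups, the 6 rises reported below still passed, with adjusted p of 0.0012 to 0.0017 for Vgll4l and 0.0015 to 0.013 for Yap/Taz. At an adjusted p under 0.05 and a fold threshold of 1 in log2 units as many as 71.4% of all genes tested passed upon Vgll4l depletion, 68.7% upon Yap/Taz depletion and 63.2% between the knockdowns. vgll4l, the targeted gene, had 6694 to 7266 normalized counts in control clusters, 1016 to 1107 in Vgll4l-depleted clusters and also only 1556 to 1677 in Yap/Taz-depleted clusters. yap1 had 2250 ± 116 (SD, n = 4) in control clusters, 1442 ± 76.5 in Vgll4l-depleted clusters and 1784 ± 30.5 in Yap/Taz-depleted clusters, so that it was lower in the Vgll4l than in the Yap/Taz libraries. wwtr1 was at 0 reads in every control library and reached 17 reads in a Yap/Taz library, so its level cannot check the Taz label. Morpholinos block splicing or translation and need not lower the read count of their target.

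Most of the apolipoprotein transcripts were higher in the libraries of either knockdown than in control libraries. Upon Vgll4l depletion 6 of the 7 genes tested rose and 1 fell, where 30.5% of all genes tested rose and 40.9% fell. Upon Yap/Taz depletion the same 6 genes rose and none passed the test in the other direction, where 30.0% of all genes rose and 38.7% fell. All libraries of the knockdown lay above all control libraries for 6 of the 7 genes and below them for 1, in both comparisons, as they did for 35.0% and 44.2% of all genes tested upon Vgll4l depletion (79.2% in either direction) and 36.5% and 44.4% upon Yap/Taz depletion (80.9% in either direction). Between the knockdowns, Yap/Taz libraries lay above Vgll4l libraries for 5 of the 7 genes and below them for 1, beside 38.9% and 36.4% of all genes (75.3% in either direction). The median log2 fold change of the 7 genes was 3.62 upon Vgll4l depletion and 3.78 upon Yap/Taz depletion, beside -0.26 and -0.27 over all genes tested. Both comparisons use the same 4 control libraries and are therefore not independent of each other. Since the genes were chosen with earlier results known, these counts and medians describe them and are no separate support.

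Together the 8 genes took 0.181% to 0.202% of all normalized counts in control clusters, 0.571% to 0.580% in Vgll4l-depleted clusters and 1.18% to 1.20% in Yap/Taz-depleted clusters, so that the ranges of the 3 groups did not overlap. apoeb made up 72.9% to 76.2%, 74.8% to 77.2% and 71.7% to 72.2% of that sum in the same order. Without apoeb the other members took 0.0431% to 0.0546%, 0.130% to 0.146% and 0.330% to 0.335%, and the order of the groups was the same. In RNA of whole clusters, fewer cells of a type and less RNA per cell cannot be told apart.

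**Figure D1:**
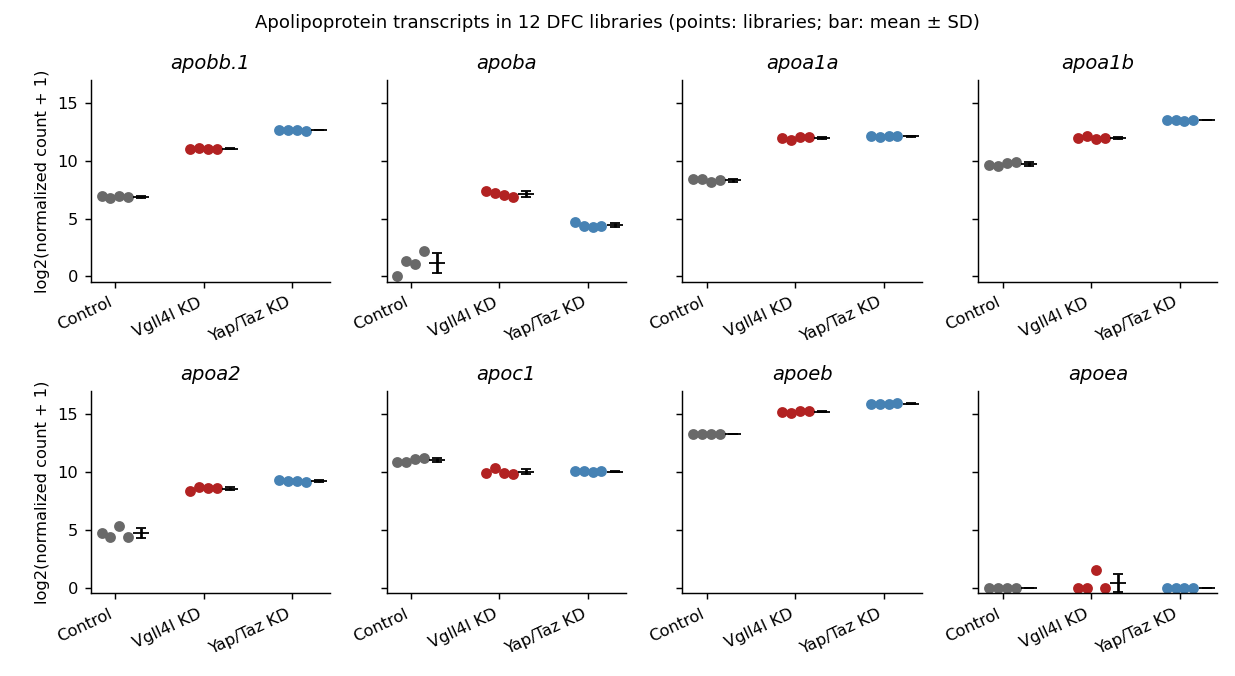
Level of each apolipoprotein gene in the 12 libraries, as log2(normalized count + 1) on the vertical axis, by group (control, Vgll4l knockdown, Yap/Taz knockdown). Points are libraries, and the black bar gives the mean ± SD of 4 libraries. 6 genes were higher in every knockdown library than in every control library, apoc1 was lower, and apoea was at 0 in 11 of the 12 libraries.

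ApoB is the structural protein of the yolk-derived particle and stays with it from assembly to uptake. apobb.1 had 125, 111, 119 and 114 normalized counts in control replicates 1 to 4. In the Vgll4l-depleted clusters it had 2045, 2189, 2073 and 2011. In the Yap/Taz-depleted clusters it had 6363, 6432, 6500 and 6243. Each group was thus narrow and clear of the other 2. The log2 fold change was 4.14 (standard error 0.05, adjusted p = 2.5e-16 by limma) upon Vgll4l depletion. It was 5.76 (adjusted p = 1.1e-17) upon Yap/Taz depletion, with which apobb.1 rose more than any of the other genes described. The knockdowns also differed from each other, by 1.62 in log2 units (adjusted p = 1.8e-12) in favour of Yap/Taz depletion, a comparison in which 33.2% of all genes tested were higher and 30.0% lower.

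apoba, the second ApoB gene, followed another order. Control replicates 1 to 4 had 0, 1.53, 1.13 and 3.55 normalized counts, that is 0, 1, 1 and 3 reads. Vgll4l-depleted clusters had 165, 150, 130 and 112. Yap/Taz-depleted clusters had 24.6, 20.0, 18.8 and 19.7, above every control library and below every Vgll4l library. The log2 fold change was 5.97 (standard error 0.37, adjusted p = 1.8e-09) upon Vgll4l depletion and 3.28 (adjusted p = 1.2e-06) upon Yap/Taz depletion. apoba was lower after Yap/Taz than upon Vgll4l depletion by a log2 fold change of -2.68 (adjusted p = 1e-05), whereas apobb.1 was higher. Since the control level rests on 5 reads in all, the size of the rise depends on the pseudocount: with 10 in place of 1 the log2 fold changes were 3.69 and 1.42.

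The ratio of apobb.1 to apoba counts lay between 12.4 and 17.9 in the Vgll4l-depleted clusters and between 258 and 346 in the Yap/Taz-depleted clusters. In the 3 control libraries where it is defined, it was 32.0 to 106 and rests on 1 to 3 apoba reads a library. A further ApoB gene, apobb.2 (ENSDARG00000075016), named after its values were seen, moved the other way: it had 44.1 ± 10.3 normalized counts in control clusters, 0.472 ± 0.944 in Vgll4l-depleted clusters and 0 in every Yap/Taz library. It fell by 5.08 in log2 units (adjusted p = 4e-09) upon Vgll4l depletion, and Yap/Taz libraries were at least 80.9-fold lower, taking 3 reads over the group as the floor. How the counting treated reads that match more than a single copy is not given in the sources used here, so values of close paralogs are uncertain to that extent.

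The genes of the high-density particle rose in both knockdowns. apoa1a had 340, 340, 284 and 314 normalized counts in control replicates 1 to 4. It had 3918, 3543, 4169 and 4161 in the Vgll4l-depleted clusters. It had 4456, 4225, 4403 and 4576 in the Yap/Taz-depleted clusters. All 8 knockdown libraries lay about an order of magnitude above the controls and the ranges of the knockdowns adjoined without overlap. The log2 fold changes were 3.62 (standard error 0.06, adjusted p = 1.8e-14) and 3.79 (adjusted p = 1.8e-14). Between the knockdowns apoa1a differed by 0.16 in log2 units (standard error 0.06, adjusted p = 0.033), under the fold threshold.

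apoa1b, its paralog, had 806, 740, 906 and 921 normalized counts in control replicates 1 to 4. It had 3873, 4449, 3686 and 4086 in the Vgll4l-depleted clusters. It had 11515, 11580, 11386 and 11747 in the Yap/Taz-depleted clusters. Control replicates 1 and 2 were lower than 3 and 4, the division seen across the whole libraries, and the 3 groups did not overlap. apoa1b rose by a log2 fold change of 2.25 (standard error 0.07, adjusted p = 2.2e-12) upon Vgll4l depletion and of 3.78 (adjusted p = 2.7e-14) upon Yap/Taz depletion, a difference of 1.53 (adjusted p = 9.8e-11) between the knockdowns.

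The balance of the ApoA-I paralogs differed between the knockdowns. The ratio of apoa1b to apoa1a counts was 2.17 to 3.19 in control libraries, 0.884 to 1.26 in Vgll4l libraries and 2.57 to 2.74 in Yap/Taz libraries. Its log2 was lower by a difference of -1.37 upon Vgll4l depletion (2-sided exact permutation p = 0.0286, adjusted p = 0.0343 over 6 tests of ratios), and 0.0286 is the smallest p that 4 libraries against 4 allow. Upon Yap/Taz depletion the difference from control was -0.01 (exact permutation p = 1, adjusted p = 1). Between the knockdowns it was 1.36 (exact permutation p = 0.0286, adjusted p = 0.0343), with every Yap/Taz library above every Vgll4l library. The 6 tests include those of the ratio of apoeb to apoc1. That ratio pairs a gene that rose with one that did not, so this adjustment is lenient. No test of a ratio was planned. The result for apoa1b to apoa1a follows from the fold changes given above, so its p-values are no separate support.

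apoa2 encodes ApoA-II, a further protein of high-density particles. It had 25.9, 19.8, 38.3 and 20.1 normalized counts in control replicates 1 to 4. It had 326, 418, 394 and 382 in the Vgll4l-depleted clusters. It had 628, 596, 603 and 561 in the Yap/Taz-depleted clusters. The groups did not overlap, and the highest control library held 34 reads. The log2 fold changes were 3.86 (standard error 0.17, adjusted p = 6.9e-11) and 4.52 (adjusted p = 1.6e-11). The difference of 0.66 (adjusted p = 0.0029) between the knockdowns was under the fold threshold.

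**Figure D2:**
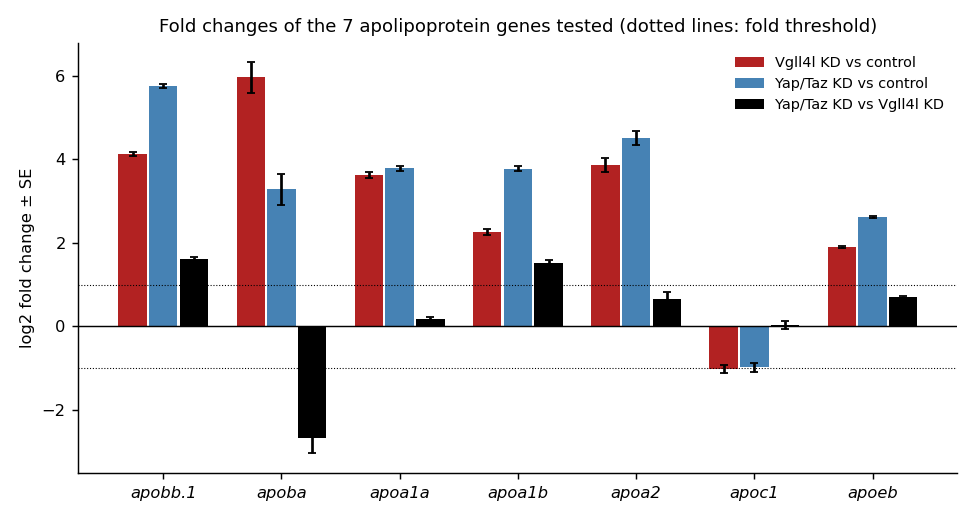
log2 fold changes ± standard error of the 7 genes tested, for Vgll4l knockdown against control, Yap/Taz knockdown against control and Yap/Taz against Vgll4l knockdown, from the fit of log2(normalized count + 1). Dotted lines mark the fold threshold. apoba alone has a difference between the knockdowns below 0 (-2.68), and the bars of apoc1 end at the lower threshold (-1.02 and -0.98).

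The ApoE genes differed from each other in whether they were detected. apoeb had 10053, 9879, 10307 and 10096 normalized counts in control replicates 1 to 4. It had 38333, 35644, 38666 and 39073 in the Vgll4l-depleted clusters. It had 61977, 62005, 60790 and 62622 in the Yap/Taz-depleted clusters. Each group was narrow and clear of the others, in the order of control, Vgll4l and Yap/Taz libraries. It rose by 1.91 in log2 units (standard error 0.03, adjusted p = 1.5e-15) upon Vgll4l depletion and by 2.62 (adjusted p = 6.1e-17) upon Yap/Taz depletion. The difference of 0.71 (adjusted p = 1.3e-11) between the knockdowns was under the fold threshold although the groups did not overlap.

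apoea, the other ApoE gene, was at 0 in 11 of the 12 libraries and had 2 reads, or 1.95 normalized counts, in Vgll4l replicate 3. A count of 0 allows up to 3 reads, which is 3.38 to 4.86 normalized counts in a control library, 2.29 to 2.93 in a Vgll4l library and 2.00 to 2.40 in a Yap/Taz library, for counting error only. No difference between the groups was detectable at this depth. apoa4a, the apolipoprotein gene next to apoea in the gene order of the GRCz12tu assembly, was also near 0, with means of 0.578, 0.244 and 0 normalized counts.

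apoc1 was the exception among the genes tested. It had 1837, 1903, 2273 and 2373 normalized counts in control replicates 1 to 4. It had 992, 1279, 963 and 910 in the Vgll4l-depleted clusters. It had 1067, 1058, 1028 and 1057 in the Yap/Taz-depleted clusters. Every knockdown library was below every control library, and the knockdowns overlapped. The log2 fold change was -1.02 (standard error 0.10, adjusted p = 3.4e-07) upon Vgll4l depletion, just past the fold threshold, and -0.98 (adjusted p = 5.3e-07) upon Yap/Taz depletion, just under it. The difference between the knockdowns was 0.04 (standard error 0.10, adjusted p = 0.78). The call upon Vgll4l depletion was lost without control replicate 3 or 4 and without Vgll4l replicate 3 or 4, with log2 fold changes of -0.98, -0.96, -0.99 and -0.96, and under TMM scaling with -0.80. The Yap/Taz value passed without control replicate 1 or 2, with -1.05 and -1.03. Control replicates 1 and 2 were the lower pair here as for apoa1b.

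Vgll4l replicate 2, the library that stood apart, had the highest value of its group for apobb.1, apoa1b, apoa2 and apoc1 and the lowest for apoa1a and apoeb. Without it the log2 fold changes against control were 4.11 for apobb.1, 5.92 for apoba, 3.67 for apoa1a, 2.21 for apoa1b, 3.81 for apoa2, 1.94 for apoeb and -1.13 for apoc1, and the same 6 genes rose and 1 fell.

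**Figure D3:**
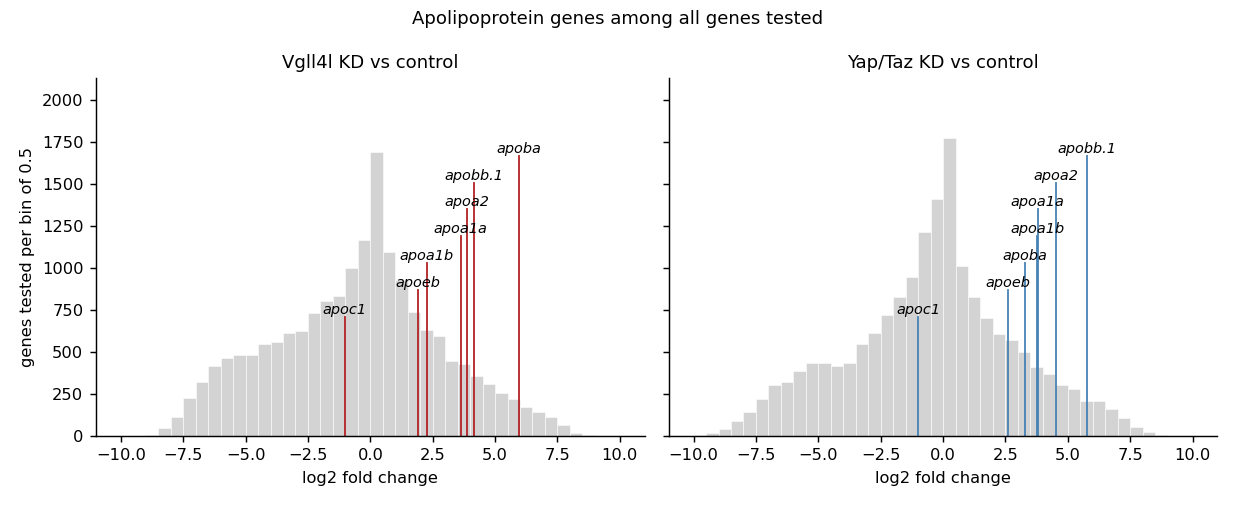
The 7 apolipoprotein genes among all 17609 genes tested. Horizontal axis: log2 fold change against control. Grey bars: number of genes tested per bin of 0.5. Labelled lines: the apolipoprotein genes, with heights that have no meaning. In both knockdowns 6 lines lie on the right flank of a wide distribution, from 1.91 (apoeb) to 5.97 (apoba) upon Vgll4l depletion and from 2.62 (apoeb) to 5.76 (apobb.1) upon Yap/Taz depletion.

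Fold changes of this size were not rare in these libraries. Upon Vgll4l depletion apoba had the highest log2 fold change of the 7 genes, and 97.0% of the genes tested lay below it. Upon Yap/Taz depletion this was apobb.1, which lay above 96.3% of the genes tested. The lowest of the 6 rises, that of apoeb, lay above 78.0% and 82.8% of the genes tested in the same order.

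3 of the genes are neighbours. In the gene order of GRCz12tu, an assembly other than that of the files, apoeb, apoc1 and apoa2 stand in a row of 8 apolipoprotein genes in the order apoa4b.1, apoa4b.3, apoa4b.2, apoeb, apoc1, apoc4, apoa2 and apoc2. This row was picked after its values were seen. The ratio of apoeb to apoc1 counts, which are next to each other, was 4.25 to 5.47 in control libraries, 27.9 to 42.9 in Vgll4l libraries and 58.1 to 59.2 in Yap/Taz libraries. This ratio pairs a gene that rose with the one that did not, and is given as a description.

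apoa4b.2 (ENSDARG00000020866), of the ApoA-IV genes, which in mammals act in lipid absorption, had 99.5 ± 16.6 normalized counts in control clusters, 409 ± 30.9 upon Vgll4l depletion and 2141 ± 84.7 upon Yap/Taz depletion. It rose by 2.04 (adjusted p = 1.9e-10) and 4.43 (adjusted p = 2.1e-13) in log2 units. apoa4b.1 (ENSDARG00000040298) was at 1.28 ± 0.993, 109 ± 12.0 and 0.533 ± 0.653. It thus rose upon Vgll4l depletion alone (log2 fold change 5.72, adjusted p = 5.4e-09), against -0.54 (adjusted p = 0.21) upon Yap/Taz depletion, and it differed between the knockdowns by -6.26 (adjusted p = 2.7e-09). apoc2 (ENSDARG00000092155), whose product is the cofactor of lipoprotein lipase, had 157 ± 30.1, 280 ± 14.7 and 908 ± 26.7. Its log2 fold change was 0.85 (adjusted p = 5e-06) upon Vgll4l depletion, under the fold threshold, which it passed under TMM scaling (1.07) and with edgeR (1.01), and 2.54 (adjusted p = 5.5e-11) upon Yap/Taz depletion. apoc4 was at 0 in every library and apoa4b.3 did not exceed 1 read in any.

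**Figure D4:**
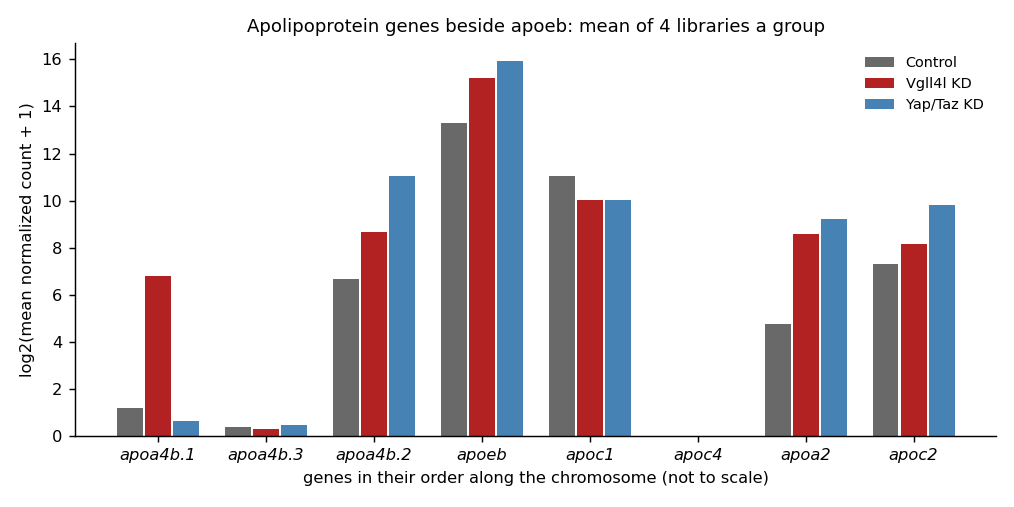
The 8 apolipoprotein genes of the row that holds apoeb, in their order along the chromosome in GRCz12tu (not to scale, other genes left out). Bars: log2(mean normalized count + 1) of 4 libraries for each group. apoa4b.2, apoeb, apoa2 and apoc2 increase from control to Vgll4l to Yap/Taz libraries, apoc1 is highest in control, and apoa4b.1 is high in Vgll4l libraries alone.

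Of the other genes named as apolipoproteins, 10 were tested. Upon Vgll4l depletion 4 rose and 3 fell (median log2 fold change 0.56), and upon Yap/Taz depletion 6 rose and 3 fell (median 2.42). Of all genes tested, as given above, 30.5% rose and 40.9% fell in the former comparison and 30.0% and 38.7% in the latter, against which this count and those of the next lists are to be read. apodb, an ApoD gene of the lipocalin family, had 15.6 ± 3.00, 338 ± 20.5 and 79.6 ± 4.54 normalized counts and, like apoba, was highest upon Vgll4l depletion (log2 fold changes 4.37, adjusted p = 3.7e-12, and 2.30, adjusted p = 1.7e-09). apoda.2, a further ApoD gene, had 91.2 ± 8.46, 67.5 ± 9.13 and 1.44 ± 0.563, and fell by 5.26 in log2 units (adjusted p = 2.7e-11) upon Yap/Taz depletion. apoob, whose product like that of apool belongs to a mitochondrial membrane complex despite its name, had 8.87 ± 4.49, 2.35 ± 3.58 and 245 ± 7.53. Its fall upon Vgll4l depletion (log2 fold change -2.02, adjusted p = 0.0059) was lost with a pseudocount of 10, at -0.62. This fall rests on 25 reads over the control libraries and 10 over the Vgll4l libraries, 8 of the latter in a single library. apoob and apool are among the 6 that rose upon Yap/Taz depletion, by 4.78 and 3.11 in log2 units. Upon Vgll4l depletion apool is among the 4 that rose (1.40) and apoob among the 3 that fell.

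Of 15 genes of lipoprotein assembly and secretion tested, 6 rose and 4 fell upon Vgll4l depletion (median log2 fold change 0.96) and 9 rose and 4 fell upon Yap/Taz depletion (median 1.78). In shares these were 40.0% and 26.7%, then 60.0% and 26.7%. mttp, the large subunit of the microsomal triglyceride transfer protein, which loads lipid onto ApoB, had 1171 ± 73.3 normalized counts in control clusters, 3688 ± 77.9 upon Vgll4l depletion and 5068 ± 133 upon Yap/Taz depletion. It rose by 1.66 (standard error 0.04, adjusted p = 5e-13) and 2.11 (adjusted p = 7e-14) in log2 units. Its partner subunit, protein disulfide isomerase, did not follow: p4hb had 1602 ± 34.4, 486 ± 101 and 437 ± 18.9 and fell by 1.74 (adjusted p = 2.7e-09) and 1.87 (adjusted p = 1.3e-09) in log2 units. sar1b, the GTPase of the vesicles that carry lipoproteins out of the endoplasmic reticulum, had 398 ± 25.6, 906 ± 82.8 and 1278 ± 57.3, with log2 fold changes of 1.18 (adjusted p = 1.7e-09) and 1.68 (adjusted p = 5.2e-11). Under scaling to the library total the former was 0.90 and no longer passed.

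Enzymes of this list fell as well as rose. dgat1b, which makes triglyceride, had 505 ± 59.5, 2.59 ± 3.39 and 20.2 ± 1.57 and fell by 7.58 (adjusted p = 2e-09) and 4.58 (adjusted p = 4.8e-07) in log2 units. Other dgat and mogat genes of the list went the other way. mogat2 rose by 4.04 and 4.55, and dgat2 rose by 2.89 upon Yap/Taz depletion alone. dgat1a, with at most 7 reads in a Vgll4l library, rose by 2.19 upon Vgll4l depletion alone. soat1, which esterifies cholesterol, had 5.81 ± 2.23, 0.907 ± 0.777 and 137 ± 8.28 and rose by 4.39 (adjusted p = 1.3e-08) upon Yap/Taz depletion. mia3, a collagen and lipoprotein cargo receptor in mammals, had 675 ± 82.0, 344 ± 4.15 and 305 ± 15.3, with log2 fold changes of -0.96 (adjusted p = 5.3e-08) and -1.13 (adjusted p = 9.6e-09), of which the latter passed, though not under TMM scaling (-0.99).

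Of 14 lipoprotein receptors and adaptors tested, 1 rose and 8 fell upon Vgll4l depletion (median log2 fold change -1.96), and 2 rose and 7 fell upon Yap/Taz depletion (median -1.35), beside medians of -0.26 and -0.27 over all genes tested. The shares that fell were 57.1% and 50.0%, beside 40.9% and 38.7%. The one that rose in both was scarb1, the high-density lipoprotein receptor, which had 287 ± 33.5, 832 ± 61.3 and 1058 ± 44.0 normalized counts and log2 fold changes of 1.54 (adjusted p = 4.8e-10) and 1.88 (adjusted p = 6.6e-11). lsr, a lipolysis-stimulated receptor that is also a protein of tricellular junctions, had 4784 ± 310, 1292 ± 98.2 and 1285 ± 25.8 and fell by 1.89 in each knockdown (adjusted p = 2.2e-12 and 2.4e-12). lrpap1, a chaperone of the LDL receptor family, had 364 ± 30.3, 23.6 ± 10.2 and 209.6 ± 10.5, with log2 fold changes of -3.99 (adjusted p = 2.1e-09) and -0.79 (adjusted p = 0.0093), of which the former passed.

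The sorting receptor sort1b and cd36 passed between the knockdowns, whereas the sorting receptor sort1a fell in both (difference -0.65, under the fold threshold). sort1a had 796 ± 39.1, 196 ± 24.7 and 124 ± 11.1 and fell by 2.03 (adjusted p = 1.5e-10) and 2.67 (adjusted p = 1.1e-11). sort1b had 1868 ± 155, 3082 ± 285 and 1106 ± 18.1 and passed only in the direct comparison of the knockdowns (-1.47, adjusted p = 1.2e-10). cd36, a fatty acid receptor, had 207 ± 39.8, 218 ± 46.9 and 536 ± 27.6, with log2 fold changes of 0.07 (adjusted p = 0.69) and 1.38 (adjusted p = 7.9e-07). ldlrap1a, an adaptor of the LDL receptor, passed between the knockdowns (-1.60, adjusted p = 2.1e-07) and, under TMM scaling alone among the scalings tried, upon Vgll4l depletion (1.0008, against 0.79).

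Of 8 lipases and particle remodelling genes tested, 3 rose and 3 fell upon Vgll4l depletion (median log2 fold change -0.72) and 1 rose and 4 fell upon Yap/Taz depletion (median -0.64). The shares upon Vgll4l depletion, 37.5% in each direction, were near those over all genes tested. pltp, the phospholipid transfer protein, had 2917 ± 105, 765 ± 60.8 and 1326 ± 72.7 normalized counts and fell by 1.93 (adjusted p = 2.2e-12) and 1.14 (adjusted p = 3e-10) in log2 units, the latter -0.995 and no longer past the threshold under TMM scaling. abca1a, which loads lipid onto ApoA-I, had 77.7 ± 11.4, 678 ± 143 and 123 ± 10.7 and rose by 3.09 (adjusted p = 2.8e-10) upon Vgll4l depletion. Its paralog abca1b had 4401 ± 258, 3190.5 ± 256 and 1859 ± 29.5 and fell by 1.24 (adjusted p = 7.8e-11) upon Yap/Taz depletion. The inhibitors of lipoprotein lipase went apart: angptl8 had 0.846 ± 1.69 normalized counts in control libraries, 184 ± 14.0 in Vgll4l libraries and at most 2.00 in a Yap/Taz library, and rose by 6.99 (adjusted p = 8e-09) upon Vgll4l depletion, whereas angptl4 had 218 ± 21.2, 114 ± 27.1 and 1.25 ± 1.15 and fell by 6.76 (adjusted p = 2.2e-10) upon Yap/Taz depletion. lmf2b, a lipase maturation factor, had 131 ± 8.57, 3.74 ± 4.46 and 258 ± 17.4, a fall of 5.19 (adjusted p = 2.9e-08) upon Vgll4l depletion.

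**Figure D5:**
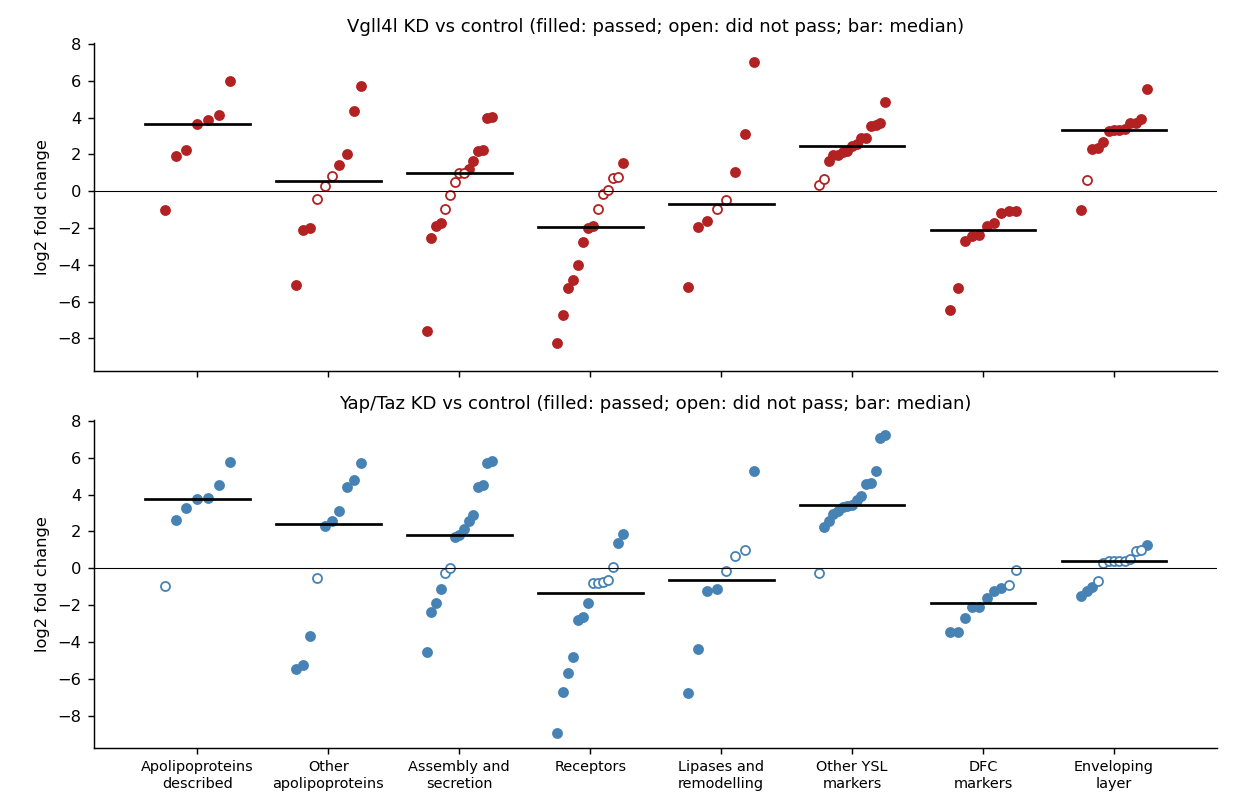
log2 fold changes against control for the apolipoproteins described and 7 other gene lists (upper panel: Vgll4l knockdown, lower panel: Yap/Taz knockdown). Points are genes tested, filled where they passed and open where they did not, and bars are list medians. The medians of the apolipoproteins (3.62 and 3.78) and of the other YSL markers (2.46 and 3.41) are above 0 in both panels, that of the EVL markers is high in the upper panel alone (3.30 against 0.39), and those of the DFC markers are below 0 (-2.14 and -1.88).

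Most markers of the YSL other than apolipoproteins were also higher in both knockdowns. Of 15 gene entries for 14 listed markers, 13 rose and none fell upon Vgll4l depletion and 14 rose and none fell upon Yap/Taz depletion. slc26a1 and slc40a1 did not pass upon Vgll4l depletion (log2 fold changes 0.35 and 0.69). Between the knockdowns 8 entries were higher in Yap/Taz libraries and 1 lower, beside 33.2% and 30.0% of all genes tested. The entry called lower was mxtx2 (log2 fold change -2.73, adjusted p = 3.2e-06), with at most 12 reads in a library. gata6 was higher in Vgll4l (1837 ± 184) than in Yap/Taz libraries (1444 ± 28.0), but its difference of -0.34 was under the fold threshold. The list was chosen with earlier results of these data known, so these counts are no separate support. gata5 and gata6 were counted here but gata4 among the endoderm markers, so the counts depend on how genes were allotted. The summed share of the 15 entries was 0.0509% to 0.0581% in control libraries, 0.323% to 0.397% in Vgll4l libraries and 0.827% to 0.859% in Yap/Taz libraries. afp4, an antifreeze-type protein known from the YSL, is entered under 2 Ensembl IDs that may share reads. ENSDARG00000095863 had 1413 ± 61.8, 17247 ± 1380 and 33034 ± 717 normalized counts and rose by 3.61 (adjusted p = 1.5e-15) and 4.55 (adjusted p = 1.3e-16) in log2 units, and ENSDARG00000041490 rose by 2.87 and 3.95. tfa, a transferrin gene, had 602 ± 20.2, 2336 ± 174 and 6409 ± 109 and rose by 1.95 (adjusted p = 3.4e-13) and 3.41 (adjusted p = 2.9e-15). Of the defining transcription factors, mxtx1 had 18.3 to 29.3, 258 to 303 and 174 to 180, whereas mxtx2 was at 0 in every Yap/Taz library and had at most 11.3 normalized counts in any. The part of RNA from the YSL in the rise of the apolipoproteins was not tested.

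Markers of the labelled cell type were detected in every library, at different levels. sox17 had 17446 to 19129 normalized counts in control libraries, 8236 to 9109 in Vgll4l libraries and 9566 to 9804 in Yap/Taz libraries. Of 10 DFC markers, 10 fell upon Vgll4l depletion and 8 upon Yap/Taz depletion. The list holds vgll4l itself, and the study reported its other genes as lower upon Vgll4l depletion in these same libraries. The count of falls was thus known in advance and is no separate support. The summed share of the 10 markers was 1.60% to 1.65%, 0.442% to 0.459% and 0.609% to 0.610%. sox32, required for DFC fate, had 27536 ± 363, 12952 ± 378 and 12884 ± 193 and fell by 1.09 (adjusted p = 4.8e-14) and 1.10 (adjusted p = 5.6e-14), and tbxta had 27409 ± 2117, 8341 ± 347 and 11524 ± 106. tbx16 fell by 1.21 (adjusted p = 1.9e-09) and 3.46 (adjusted p = 1.3e-13), and ndr1, a Nodal ligand, had log2 fold changes of -6.44 (adjusted p = 1.6e-10) and -3.45 (adjusted p = 1.1e-07). Under TMM scaling sox32 was at -0.87 and -0.95 and tbx16 upon Vgll4l depletion at -0.99, all under the fold threshold. With edgeR sox32 was at -0.89 upon Vgll4l and -0.98 upon Yap/Taz depletion, also under it. dnmt3bb.1, a DNA methyltransferase, had 1632 ± 98.4, 48.9 ± 35.5 and 1518 ± 47.6, and fell by 5.26 (adjusted p = 1.2e-09) upon Vgll4l depletion.

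EVL markers set the knockdowns apart. Of 13, 11 rose and 1 fell upon Vgll4l depletion, and 1 rose and 3 fell upon Yap/Taz depletion, where 3 rose under TMM scaling. Their summed share was 0.537% to 0.578% in control, 4.00% to 4.54% in Vgll4l and 0.786% to 0.793% in Yap/Taz libraries. krt4 had 11207 ± 176, 148292 ± 17314 and 13412 ± 160, krt5 5341 ± 253, 27498 ± 307 and 2233 ± 52.1, and krt18a.1 8001 ± 147, 80454 ± 4750 and 19422 ± 236. apoba and apodb, with apoa4b.1, were likewise highest in Vgll4l libraries. mxtx1, abca1a and angptl8, which are not on the EVL list, were also highest in Vgll4l libraries. The part of EVL RNA in these values was not tested. cldnf, a claudin, fell by 1.03 (adjusted p = 6.7e-09) upon Vgll4l depletion, a call lost under TMM scaling at -0.81 and without control replicate 2 (-0.98) or Vgll4l replicate 3 (-0.997).

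Endoderm markers were mixed. Of 7 tested, 3 rose and 1 fell upon Vgll4l depletion, and 4 rose and none fell upon Yap/Taz depletion, where edgeR and DESeq2 called 2. foxa2 had 28.1 ± 7.29, 1624 ± 199 and 1153 ± 32.5 and rose by 5.83 (adjusted p = 5.7e-13) and 5.34 (adjusted p = 1.4e-12). foxa3 fell by 3.42 (adjusted p = 3.3e-09) upon Vgll4l depletion, and foxa1 rose by 5.92 (adjusted p = 1.1e-08) upon Yap/Taz depletion.

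Among the 9264 genes whose mean reached 50 normalized counts, the pattern of 3 genes outside the apolipoproteins was closest to that of apobb.1 over the 12 libraries, by the root mean square difference of their centred log2 values. They were zgc:114041 (ENSDARG00000052109, difference 0.15), prdm1a (ENSDARG00000002445, 0.17) and si:ch211-153b23.5 (ENSDARG00000058206, 0.26). prdm1a, a transcriptional repressor of the embryo, had 30.2 ± 4.35, 589.6 ± 22.6 and 1941 ± 46.5 normalized counts. Of the apolipoproteins described, apart from apoea, apoa2 was closest to apobb.1, with a difference of 0.57, and apoc1 farthest, with 2.88. Other apolipoproteins were not ranked in this way.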

How the data were processed

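Clusters of dorsal forerunner cells were profiled in 12 libraries, 4 a group. Per the labels and the study's methods, the authors amplified cDNA with SMART-Seq v4, sequenced 50 bp single ends, aligned with STAR to GRCz10, counted reads per gene with featureCounts and normalized with DESeq2; versions are not given in the sources used here. The deposited signal is headed TPM, but it is a count per gene divided by a size factor: at a tolerance of 0.001, 100% of values above 0 were whole multiples of 1 read. Deposited log2 fold changes and adjusted p-values of the authors were not used.

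limma 3.58.1 (limma-trend, R 4.3.3) was fitted to log2(normalized count + 1) over all 12 libraries. It covered the 17609 genes with a mean of at least 1, with Benjamini-Hochberg adjustment per comparison. The spread is shared by the 3 groups. The fit was also run on simulated independent libraries with few changed genes. That setting differs from these data, so no conclusion is drawn from it. Genes passed with a log2 fold change beyond 1 in size and an adjusted p below 0.05. Fold changes on this scale understate changes of low genes. No transcript lengths were used, so shares and ratios of genes are of counts and do not compare numbers of transcripts. Alternatives were pseudocounts of 0.5 and 10, other filters, library total and TMM scaling, edgeR 4.0.16 and DESeq2 1.42.0 on recovered reads, only the groups compared, a replicate block, the fold threshold dropped or raised to 2, each library left out, and, chosen after seeing the data, averages of similar libraries. edgeR called 10958, 10614 and 10007 genes after Vgll4l knockdown, after Yap/Taz knockdown and between them.

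All apolipoproteins described are named, with up to 2 genes per other list, comparison and direction that passed and had the highest mean (at least 50), and the 3 nearest profiles. Some further genes of the lists are named beside these. Members and lists were chosen with earlier results of these data known. Of 31953 genes, 13489 had no symbol and 8380 of these were named by ID from a reference table. Figures were drawn with matplotlib 3.10.9 in Python 3.11.15. Protein and promoter sequences were not used here.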

Additional observations from a re-analysis of the deposited data

Results flagged for a closer look

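Among the 4 Vgll4l libraries, apoea was far from the others in replicate 3, with 1.95 normalized counts (2 reads) against 0 in the other 3. Of 27 groups of values checked in this way chance would mark about 1 in 20, and 2 reads are under the limit of 3 that a count of 0 allows.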

How the results depend on the processing

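The 6 rises against control passed under every alternative in both knockdowns, except that of apoeb after Vgll4l knockdown (1.91) at a fold threshold of 2 in log2 units. The lower level of apoba after Yap/Taz than after Vgll4l knockdown passed under every alternative. The number of members that fell after Vgll4l knockdown (1, apoc1) was 0 under TMM scaling, edgeR, averages of similar libraries (log2 fold changes -0.80, -0.82 and -0.91) and a fold threshold of 2, and 0 to 1 with each library left out. After Yap/Taz knockdown the number that fell (0) was 1 under library total scaling (-1.02) and with no fold threshold, and 0 to 1 with each library left out. Between the knockdowns 2 of the 7 members (28.6%) were higher after Yap/Taz depletion, a share near the 33.2% of all genes tested. This number was 5 with no fold threshold, adding apoa1a, apoa2 and apoeb, and 0 at a fold threshold of 2 in log2 units. The shares of all genes at these 2 thresholds are not given here. With similar libraries averaged, the 6 members that rose kept log2 fold changes above 0 against control in both knockdowns. No called value changed direction. Without the most abundant gene the summed share was 0.210% in control, 0.605% in Vgll4l and 1.27% in Yap/Taz libraries. The median log2 fold change of all genes after Vgll4l knockdown was -0.26, but -0.48 under library total scaling and -0.07 under TMM, and after Yap/Taz knockdown -0.27, -0.31 and -0.14.

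With a replicate block the counts of members called were as without it. After Vgll4l knockdown 6 members rose and 1 fell, beside 5365 and 7198 of the 17609 genes tested. After Yap/Taz knockdown 6 rose and 0 fell, beside 5286 and 6820 genes. Between the knockdowns 2 were higher and 1 lower, beside 5841 and 5287 genes. Libraries of the same number did not deviate together (12 correlations of -0.06 to 0.02, against -0.03 to 0.04 for different numbers). No sign that the numbers pair the samples was thus seen. Since many libraries differ by little more than counting noise, a pairing could have been missed. In control libraries apoba rests on 0 to 3 reads, which limits the precision of its fold change.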
